A study of Mus musculus with 2 samples.

Results

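The mouse miRNA genes whose symbols run from Mir1250 to Mir1999 were examined in adrenal gland. All rows of the deposited count tables with a GENCODE M21 symbol in that number range were taken, with or without a letter or copy suffix, which gave 71 of 2202 miRNA genes. The rule uses no measured value, but it was set with earlier results of these data known. The series holds 1 group of 2 libraries, made from total RNA of adrenal gland of C57BL/6J mice, an inbred strain, with inserts below 30 nt. The labels name no treatment or altered allele; a note on the tissue reads WT male, yet sex is entered as not collected, and both age and stage are unknown. The 2 replicates cite 1 donor record, so SDs here measure the spread between libraries, which may be technical. The p-values set the difference between the 2 libraries against counting error only.

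MiRNA genes are numbered roughly in order of discovery. Those with high numbers were found mostly by deep sequencing, and many have no counterpart outside rodents. In the usual route the nuclear Microprocessor, formed by Drosha and Dgcr8, cuts a hairpin from a longer transcript, and Dicer then cuts the hairpin to a mature RNA whose seed (bases 2 to 8) pairs with target mRNAs. Some hairpins reach Dicer by other routes. In mirtrons, splicing frees a short intron that is itself the hairpin, and other small RNAs arise from snoRNAs or from scaRNAs, the related guide RNAs of Cajal bodies that direct modification of spliceosomal RNAs.

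The 6 genes that carried nearly all counts of the range were Mir1839, Mir1843a, Mir1843b, Mir1981, Mir1306 and Mir1968. Their mature forms are shown because the results turn on them, 5′ to 3′ as listed by RefSeq on GRCm38.p6, with the seed in capitals. Counts are given for a whole hairpin, so which arm was sequenced is not known.
miR-1839-5p: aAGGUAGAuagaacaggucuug
miR-1843a-5p: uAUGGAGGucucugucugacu
miR-1843a-3p: uCUGAUCGuucaccuccauaca
miR-1843b-5p: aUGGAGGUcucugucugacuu
miR-1843b-3p: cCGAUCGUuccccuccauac
miR-1981-5p: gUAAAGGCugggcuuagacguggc
miR-1981-3p: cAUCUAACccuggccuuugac
miR-1306-5p: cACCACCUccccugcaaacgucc
miR-1306-3p: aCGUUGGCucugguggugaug
miR-1968-5p: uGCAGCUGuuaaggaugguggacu
miR-1968-3p: aCCACCUCugcagcuguuaag

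None of these 11 seeds occurs in another mature miRNA of the RefSeq table. miR-1839-5p has 6 bases in common with let-7g-5p, which start at its base 2 and at base 3 of let-7g-5p, so the seeds are shifted by 1 base and differ. RefSeq entries were matched by symbol for 60 of the 71 genes and gave 75 mature forms, of which 12 share their seed with a mature form of another gene. Among the 12 is miR-1947-3p, whose gene Mir1947 had 130 counts in replicate 1 and 35 in replicate 2. Its seed is that of miR-3473d and miR-674-5p. Others are miR-1961, which has the seed of the let-7 family, and miR-1928, which has that of miR-221 and miR-222.
miR-1961: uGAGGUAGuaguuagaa
let-7g-5p: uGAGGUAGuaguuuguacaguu
miR-1928: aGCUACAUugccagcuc
The gene Mir1961, with this let-7 seed, had 1 count in replicate 1 and 0 in replicate 2. Mir1928 had no count in either, but its hairpin shares a 20-base stretch with transcripts of 24 other genes, so this sets no limit on its level.

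Replicate 1 held 10263894 counts assigned to miRNA genes and replicate 2 held 3525666, and unmapped reads were 13.8% and 41.4% of the libraries. The miRNAs of the tissue's own cells were at high levels, with 68022 and 76044 CPM (counts per 1000000 assigned counts) for the neuroendocrine Mir375 and 89916 and 95595 CPM for the endothelial Mir126a. Mir143 and Mir145a, markers of smooth muscle and other mesenchymal cells, had 24738 and 25539 CPM and 880 and 1080 CPM. The skeletal muscle marker Mir206 was near 0, with 22 and 9 counts. Mir133b had 1 and 0 counts, but its hairpin shares a 20-base stretch with other miRNA genes, so its count sets no limit. The liver marker Mir122 had 104 and 97.6 CPM, and the red cell marker Mir451a had 8085 and 1685 CPM, the latter difference being a point in which the libraries stand apart.

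The 71 genes took 19634 counts in replicate 1 and 5698 in replicate 2. This was 0.191% of assigned counts in replicate 1, with a Wilson 95% interval from 0.189% to 0.194%, and 0.162% in replicate 2, with an interval from 0.157% to 0.166%. The mean share was 0.176% ± 0.021 (SD, n = 2), and the intervals, which cover counting error only, do not overlap. At least 1 count in either replicate was found for 40 of the 71 genes (56.3%), beside 34.8% of all 2202 genes. Detection, meaning 10 CPM or more in both replicates, was reached by 6 of 71 (8.45%), beside 12.1% of all genes. The share with a count was therefore above that of the whole table and the share detected below it. Among genes from Mir1 to Mir1249 63.9% had a count, and from Mir2000 upwards 56.0%. Of the 1039 genes whose symbols have another form 7.12% did, which lowers the share of the whole table.

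Counts were concentrated in few genes. Mir1839 alone held 63.1% of the counts of the range in replicate 1 and 60.4% in replicate 2. The first 3 genes held 84.3% and 82.6%, and the 6 detected genes 96.8% and 96.5%. The 34 genes that were counted without being detected shared 628 and 198 counts. A low level in bulk tissue can mean few cells with the miRNA or little of it per cell, and these cannot be told apart. In the plot of levels by gene, the fall from Mir1839 to the genes around 1 CPM spans about the same range in both libraries.

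**Figure D1:**
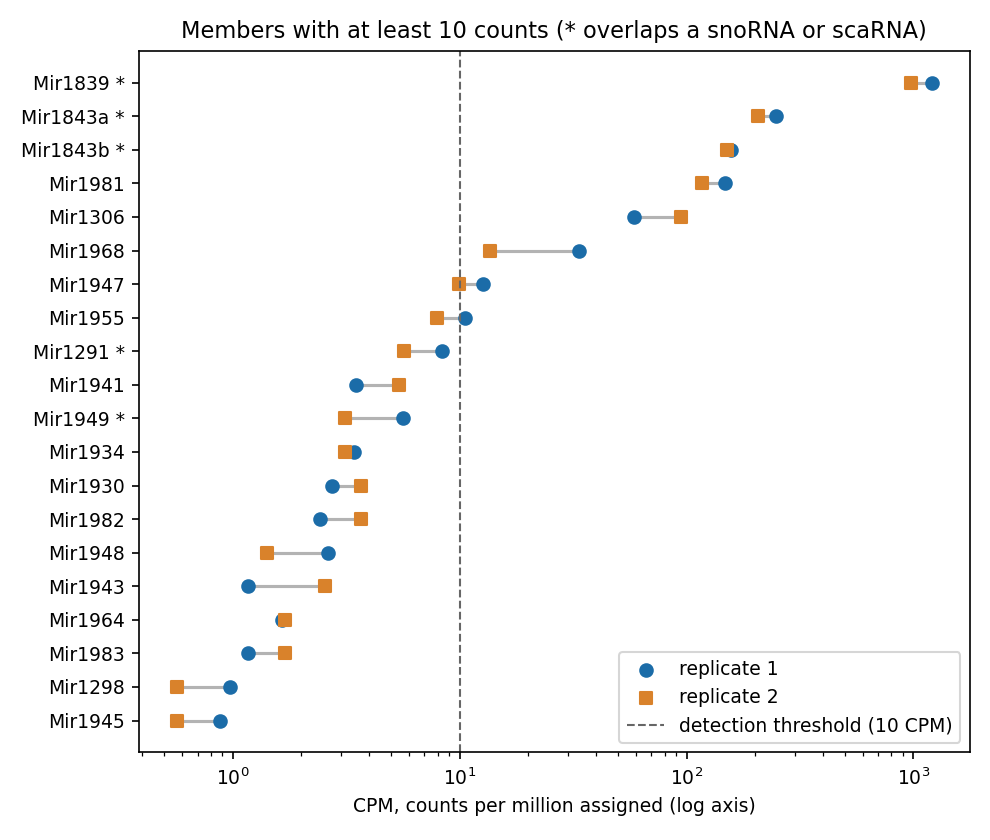
Level of the 20 genes of the range that had 10 or more counts in all, in CPM on a log axis, with circles for replicate 1 and squares for replicate 2 joined by a grey line; the dashed line marks 10 CPM and asterisks mark genes that overlap an annotated snoRNA or scaRNA. Mir1839 stands at 1208 and 977 CPM, 5 more genes lie right of the line in both replicates, and Mir1947 and Mir1955 lie on both sides of it.

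The 3 most abundant genes of the range all overlap an annotated scaRNA on their own strand. Mir1839 (ENSMUSG00000104618.1) lies on mm10 chromosome 7 from 81529916 to 81529988, plus strand, and 66 of its 73 bases fall within a scaRNA gene that extends from 81529855 to 81529981 and bears the same symbol. It also overlaps exon 2 of the noncoding gene 2900076A07Rik. Mir1839 had 12395 counts (1208 CPM) in replicate 1 and 3443 (977 CPM) in replicate 2, which placed it at rank 60 and rank 64 of all miRNA genes. Its mean was 1092 ± 163 CPM (SD, n = 2), the highest of the range. The hairpin shares a stretch of 20 bases with a transcript of 1 gene elsewhere. No GENCODE transcript of another locus holds the whole of miR-1839-5p, but the overlapping scaRNA gene spans its listed bases, 81529919 to 81529940.

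Mir1843a and Mir1843b are related copies, each within a copy of the same scaRNA. Mir1843a (ENSMUSG00000105972.1) lies on chromosome 12 from 80391613 to 80391677, minus strand, wholly inside Scarna3b (80391613 to 80391751), in an intron of Dcaf5, a substrate receptor of a ubiquitin ligase, and in an exon of the noncoding gene CT030161.1. Its counts were 2545 (248 CPM) and 731 (207 CPM) in replicates 1 and 2, which gave 228 ± 28.7 CPM (SD, n = 2) as the mean. Mir1843b (ENSMUSG00000105399.1) lies on chromosome 1 from 159340358 to 159340423, plus strand, with 65 of 66 bases inside Scarna3a (159340283 to 159340422), in an intron of the ubiquitin ligase gene Cop1. The libraries were close here, with 1609 counts (157 CPM) and 531 counts (151 CPM), and the mean was 154 ± 4.35 CPM (SD, n = 2). Mir1843a was above Mir1843b in both libraries, with means 1.48-fold apart and ranges that did not overlap.

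The hairpins of the pair are shown because the sequence they share limits what these counts measure. The capitals mark the longest stretch common to both, 23 bases, which holds the whole of miR-1843b-5p and all of miR-1843a-5p but its first base.
Mir1843a hairpin: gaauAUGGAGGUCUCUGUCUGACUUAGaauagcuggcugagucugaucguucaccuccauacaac
Mir1843b hairpin: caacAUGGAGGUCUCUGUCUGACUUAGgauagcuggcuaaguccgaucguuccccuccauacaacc
A read that lies within the capitals maps to both loci, and the authors' tables put reads that map to several places in a summary line and in no gene. Counts of Mir1843a and Mir1843b therefore come from reads that reach outside that stretch, and their levels are uncertain. The 3p forms have no common run longer than 9 bases.

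Lower levels were seen at Mir1291 and Mir1949, which overlap annotated snoRNAs. Mir1291, on the minus strand of chromosome 15 from 98519762 to 98519878, overlaps Snora34 by 92 bases in an intron of Kansl2, a chromatin complex gene, and had 86 counts (8.38 CPM) in replicate 1 and 20 (5.67 CPM) in replicate 2. Mir1949 had 58 and 11 counts (5.65 and 3.12 CPM). Neither reached 10 CPM in a library. Together the 5 genes with such an overlap made up 85.0% of the counts of the range in replicate 1 and 83.1% in replicate 2, and without them the mean share of the range in the libraries fell from 0.176% to 0.0280% ± 0.00097 (SD, n = 2).

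Overlap with a snoRNA or scaRNA was annotated for 5 of the 71 genes (7.04%), beside 1.09% of all 2202. All 5 had counts and 3 were detected. Outside the range, 19 miRNA genes have such an overlap, of which 13 had a count and 5 were detected, namely Mir664, Mir3068, Mir5121, Mir6516 and mmu-mir-3535, named after their values were seen. The highest of the 19 had a mean of 62.7 CPM, below each of Mir1839, Mir1843a and Mir1843b. The tables give neither read length nor position within a gene, so reads cut as miRNAs and other fragments of the scaRNA cannot be told apart.

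Mir1981 is the leading gene of the range without such an overlap. It is annotated from the first to the last base of an intron: the hairpin and the intron of Marc2, a mitochondrial reductase gene, are both 82 bases long, which is the arrangement of a mirtron. Mir1981 (ENSMUSG00000088559.1) lies on chromosome 1 from 184822407 to 184822488, minus strand. The hairpin is shown with its first and last 2 bases, the intron ends, in capitals.
Mir1981 hairpin: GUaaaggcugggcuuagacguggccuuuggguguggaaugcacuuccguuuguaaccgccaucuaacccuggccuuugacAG
miR-1981-5p starts at base 1 of this intron. Counts of Mir1981 were 1511 (147 CPM) and 413 (117 CPM) in replicates 1 and 2, with a mean of 132 ± 21.3 CPM (SD, n = 2).

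Mir1982 is the other gene of the range whose hairpin fills an annotated intron, 74 bases of Oaz1, the antizyme that restrains ornithine decarboxylase. It had 25 counts (2.44 CPM) in replicate 1 and 13 (3.69 CPM) in replicate 2, far below Mir1981 in both. Its hairpin also lies in an exon of another Oaz1 transcript and is counted as exonic below. In the whole table, 23 genes have a hairpin whose ends lie within 5 bases of the ends of an intron, and 4 of them were detected. Besides Mir1981 these were Mir3102 (308 and 200 CPM), Mir877 (49.4 and 38.0 CPM) and Mir3547 (30.7 and 11.9 CPM), named after their values were seen. Mir1981 was second to Mir3102 among the 23 in both libraries.

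Mir1306 lies in the coding sequence of Dgcr8, the gene of the Microprocessor's RNA-binding subunit. On chromosome 16, minus strand, Mir1306 (ENSMUSG00000080452.3) extends from 18284239 to 18284317, in exon 1 or 2 of Dgcr8, depending on the transcript. Replicate 1 gave it 602 counts (58.7 CPM) and replicate 2 gave 334 (94.7 CPM), with a mean of 76.7 ± 25.5 CPM (SD, n = 2). It was the detected gene of the range that stood higher in replicate 2, by rank as well, 199 in replicate 1 and 176 in replicate 2.

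Mir1968 was the lowest detected gene. It lies in an intron of Grtp1, a growth hormone-regulated TBC protein gene, on chromosome 8 from 13189031 to 13189098, minus strand (ENSMUSG00000088054.1). With 344 counts (33.5 CPM) in replicate 1 and 48 (13.6 CPM) in replicate 2, its mean was 23.6 ± 14.1 CPM (SD, n = 2), and its level differed more between libraries than that of any other detected gene of the range. Its hairpin holds a 19-base stretch in both arms, at bases 4 and 48, shown in capitals. A read within that stretch has more than 1 place to map, but the listed miR-1968-5p (24 bases) and miR-1968-3p (21 bases) each extend beyond it.
Mir1968 hairpin: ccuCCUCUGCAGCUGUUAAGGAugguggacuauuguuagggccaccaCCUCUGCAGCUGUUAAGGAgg

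The genes just below the detection threshold were intronic too. Mir1947, in an intron of the peptidase gene Lmln, had 130 counts (12.7 CPM) in replicate 1 and 35 (9.93 CPM) in replicate 2. Mir1955, in an intron of the histone reader gene Phf21a, had 108 (10.5 CPM) and 28 (7.94 CPM). Both passed 10 CPM in replicate 1 and missed it in replicate 2. Each of the 6 detected genes and Mir1947 kept its place in the order of levels in both libraries, with ranges that did not overlap those of its neighbours above it. For Mir1843a and Mir1843b this is an order of the reads that reach outside their shared stretch, so their order of levels is uncertain. Below Mir1947, the ranges of Mir1947, Mir1955 and Mir1291 overlapped from one to the next, though these genes had the same order in both libraries. Mir1291 stayed above Mir1941 (3.51 and 5.39 CPM), and from Mir1941 down to Mir1983 every pair of neighbours overlapped.

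A list of 5 genes whose names are shared with human miRNA genes was examined, which is not complete, since Mir1291, described above, and Mir1258, with no count, share theirs too. Of the 5, Mir1306 was detected. The others on the list were Mir1298 with 10 and 2 counts, Mir1264 with 1 and 2, and Mir1251 and Mir1912 with none in either library. Mir1264, Mir1298 and Mir1912 lie in introns of Htr2c, the serotonin 2C receptor gene, which is known from choroid plexus and brain, and Mir1251 lies in an intron of Rmst, a long noncoding RNA of neural cells. The other miRNA genes of Htr2c were as low, with 2 and 1 counts for Mir448 and 0 and 0 for Mir764.

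Genes with a letter or copy suffix numbered 8 in the range, and besides Mir1843a and Mir1843b only Mir1957a was counted, with 1 and 0 counts. Mir1906-1, in an exon of the imprinted Meg3 transcript, and Mir1906-2 on the X chromosome carry the same mature sequence and had no count. Reads from them would map to both places, so the absence of counts sets no limit on their level.

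No count was found in either library for 31 genes of the range. Of these, 9 share a stretch of 20 bases with another miRNA gene or with a GENCODE transcript elsewhere, which includes Mir1954 and Mir1946b, whose hairpins share one with transcripts of 1545 and 635 genes. For the other 22 a count of 0 leaves room for 3 counts of reads placed at 1 locus, and those would be 0.292 CPM in replicate 1 and 0.851 CPM in replicate 2. The genome outside annotated transcripts was not searched. A further 20 genes had from 1 to 9 counts over both libraries, 10 genes of the range were counted in replicate 1 alone and 5 in replicate 2 alone.

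By place in the annotation, 32 hairpins were intronic, 22 overlapped an exon of any transcript on their strand, 5 lay opposite a gene and 12 were intergenic. All 6 detected genes lie inside a host gene, 3 intronic and 3 exonic. The exonic genes held 79.8% of the counts of the range in replicate 1 and 79.9% in replicate 2, mostly Mir1839 and Mir1843a. The 12 intergenic genes had 65 and 20 counts in all, led by Mir1934 with 35 and 11, whose hairpin shares a 20-base stretch with transcripts of 451 other genes. Of the 71 genes, 54 (76.1%) lie within a host on the same strand, beside 54.6% of all 2202. Another miRNA gene lies within 10 kb on the same strand for 4 (5.63%), beside 21.8% of all. Neither share is particular to the range, since genes from Mir2000 upwards had 75.8% in a host and 7.10% with such a neighbour. Genes from Mir1 to Mir1249 had 62.8% and 55.0%, and the 1039 genes with symbols of another form 37.5% and 13.9%.

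**Figure D2:**
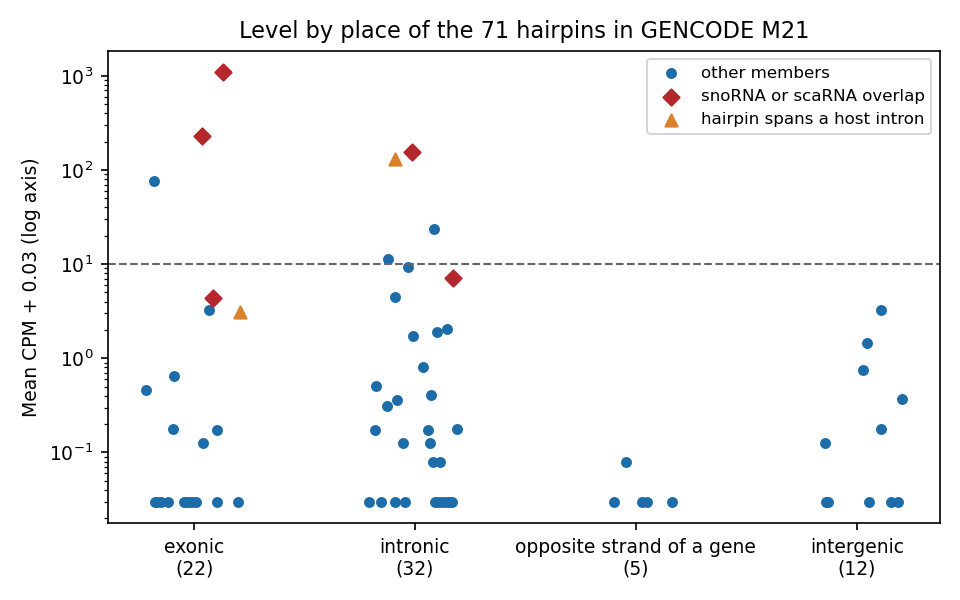
Mean CPM over both replicates plus 0.03, on a log axis, for each of the 71 genes by the place of its hairpin, with diamonds for overlap with a snoRNA or scaRNA, triangles for hairpins that fill a host intron and circles for the others; the dashed line marks 10 CPM and horizontal scatter has no meaning. No intergenic or opposite-strand gene reaches the line, and the bottom row holds the 31 genes without a count.

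Detection was unlike between ranges of the number in the symbol. The ranges leave out 1039 of the 2202 genes, whose symbols have another form; 1.44% of these were detected, 7.12% had a count, and they took 29.0% and 23.3% of assigned counts. Of the 529 genes from Mir1 to Mir1249, 44.2% were detected, of the 71 from Mir1250 to Mir1999 8.45%, and of the 563 from Mir2000 upwards 2.13%. The shares with at least 1 count were closer, 63.9%, 56.3% and 56.0%. The median gene had a mean of 2.35 CPM, 0.0974 CPM and 0.0974 CPM in these ranges, and 0 over all 2202 genes. Genes that reached 1000 CPM in both libraries numbered 53, 0 and 0. Shared stretches of 20 bases with another miRNA gene, which withhold reads, were more common among the early numbers, at 38.4%, 11.3% and 7.64%.

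**Figure D3:**
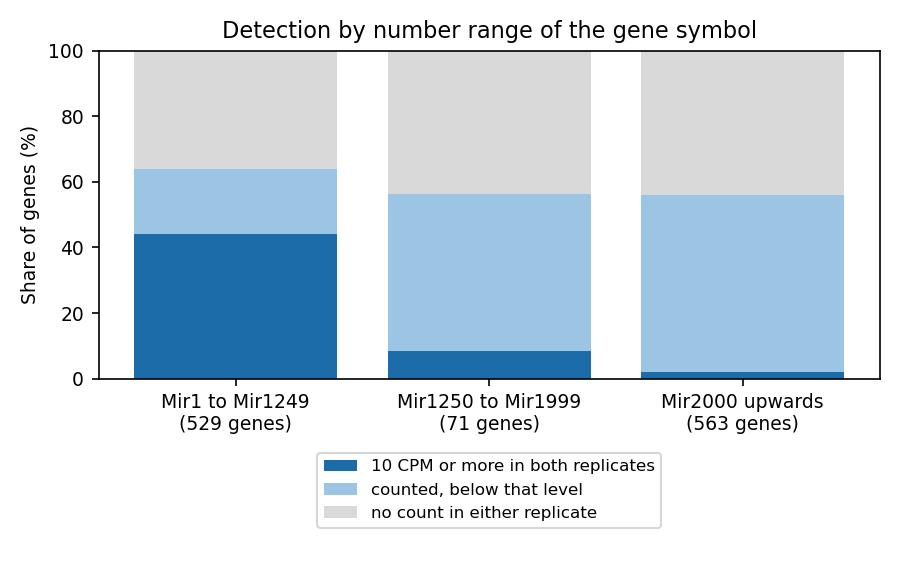
Share of genes in percent, by number range of the symbol, that reached 10 CPM in both replicates (dark), were counted below that level (light) or had no count (grey). The dark part covers 44.2%, 8.45% and 2.13% of the ranges, while the grey part stays between 36.1% and 44.0%.

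Within the range, counts were unevenly spread over the numbers. The 11 genes from Mir1839 to Mir1899 held 3 of the detected genes, Mir1839, Mir1843a and Mir1843b, and the other 8 had 1 count in all, at Mir1896. The 10 genes from Mir1900 to Mir1912 had 5 counts in replicate 1 and 0 in replicate 2. Of the 43 from Mir1927 to Mir1983, 30 had a count, and Mir1981 and Mir1968 were detected. The 7 genes below Mir1800 held 3.56% and 6.28% of the counts of the range, mostly those of the detected Mir1306.

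Between the replicates, the exact two-sided binomial test with Benjamini-Hochberg adjustment over all 443 genes tested (at least 10 counts over both libraries) called 5 of the 20 genes of the range that were tested. Over all genes tested it called 52.8%, with 31.6% higher in replicate 1 and 21.2% higher in replicate 2. The test compares 2 libraries against counting noise and is no test of a condition. Of the 5, Mir1839, Mir1843a, Mir1981 and Mir1968 were higher in replicate 1 and Mir1306 was higher in replicate 2, and these are 5 of the 6 detected genes (83.3%), beside 205 of the 267 detected genes of the whole table (76.8%). None of the 14 tested genes below the detection threshold was called, and with 11 to 165 counts each, only large differences were detectable there.

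The log2 ratio of replicate 2 over replicate 1, scaled by TMM, was -1.30 for Mir1968, with an exact 95% interval from -1.78 to -0.88 (adjusted p = 2.18e-10 by the exact binomial test). For Mir1306 it was 0.68, with an interval from 0.48 to 0.87 (adjusted p = 8.46e-11, exact binomial test). These are differences of 2.47-fold and 1.60-fold. The other called ratios were smaller, at -0.35 for Mir1981, -0.32 for Mir1839 and -0.27 for Mir1843a. Mir1843b had a ratio of -0.07, with an interval from -0.22 to 0.07, and did not pass (adjusted p = 0.419, exact binomial test). Over the 20 tested genes the median ratio was -0.30 and the median gene lay 1.41-fold apart, beside -0.17 and 1.36-fold over all 443. The libraries also differ in unmapped share and in Mir451a, as given above, and the part of these in the ratios was not tested.

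**Figure D4:**
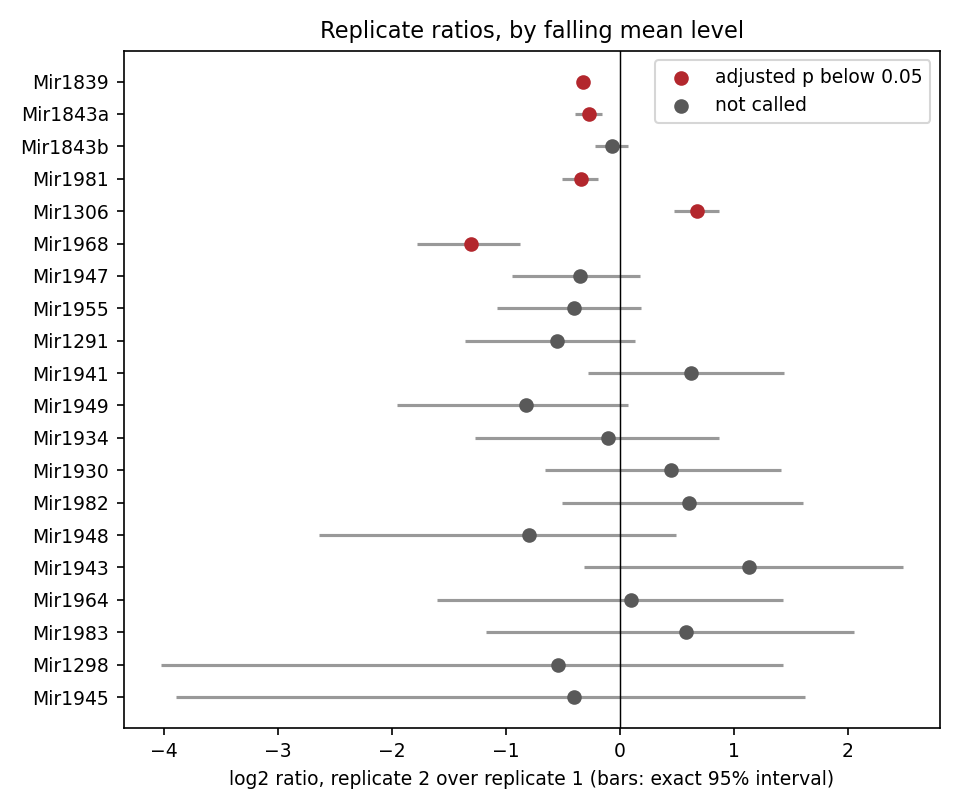
Log2 ratio of replicate 2 over replicate 1 for the 20 tested genes, ordered from the highest mean level at the top, with exact 95% intervals as bars and genes with an adjusted p below 0.05 in red. Mir1306 is the called gene right of 0, Mir1968 lies farthest left of the called genes at -1.30, and intervals widen towards the bottom as counts fall.

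**Figure D5:**
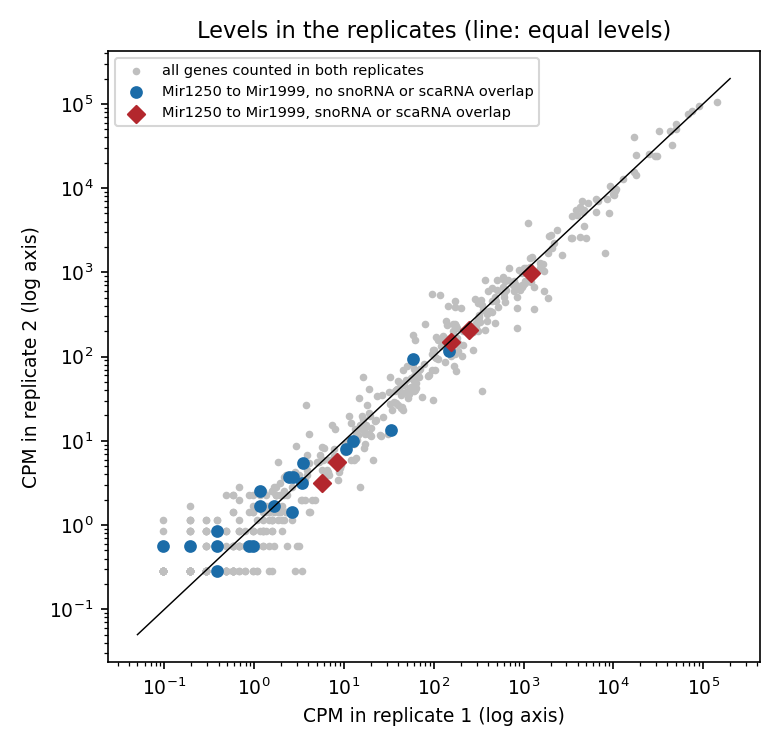
CPM in replicate 2 against CPM in replicate 1 on log axes for all genes counted in both libraries (grey) and for the genes of the range, with diamonds for overlap with a snoRNA or scaRNA and the line of equal levels. The genes of the range lie within the grey cloud along the line, and the 3 upper diamonds are Mir1839, Mir1843a and Mir1843b.

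Folding was computed from sequence alone. The median minimum free energy of the 71 hairpins was -41.8 kcal/mol per 100 bases, beside -36.9 over all 2202 and -41.8 for Mir1 to Mir1249. The 5 genes that overlap a snoRNA or scaRNA had a median of -32.4, less stable than the -42.2 of the other 66. Mir1839, the most abundant, had -30.1, while Mir1968 had -59.0. The 6 detected genes had a median of -36.2, the 34 counted below the threshold -43.7 and the 31 without a count -38.7, so stability did not follow the order of levels.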

How the data were processed

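MicroRNA-seq libraries of 2 replicates of 1 group were analysed. The authors deposited raw counts per miRNA gene, 1 table per library, on mm10 with GENCODE M21 per the accompanying description files; the labels' protocols link a document on adapter trimming. Aligner and counter: not given in the sources used here. Of the 3 count columns the one on the strand of the gene was used, and the 4 summary lines (unmapped, several places, no gene, ambiguous) were left out, so that 49.8% and 33.2% of the reads of replicates 1 and 2 were used. CPM was computed over all 2202 genes. With 1 group, no condition was tested. The replicates were compared by exact binomial tests, with TMM-scaled library sizes from edgeR 4.0.16 in R 4.3.3 (0.5 counts added for ratios); DESeq2 1.42.0 size factors were an alternative. The test was tested on simulated data. Hairpins were taken from GENCODE transcripts, searched for shared 20-base stretches on both strands and folded with ViennaRNA 2.7.2; Python 3.11.15 and scipy 1.17.1 did the rest. Named genes were those detected at 10 CPM, the 3 nearest below it, the called ones and the lists. Members, lists and thresholds were chosen with earlier results of these data known, and the searches for intron ends, repeats and seeds were added after values were seen.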

Additional observations from a re-analysis of the deposited data

How the results depend on the processing

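The share of the range in assigned counts, 0.176%, was 0.201% in the column without regard to strand and 0.202% with Mirlet7g out of the total, since both shrink the total. It was 0.0672% without Mir1839 and, in an alternative chosen after seeing the data, 0.0280% without the genes that overlap a snoRNA or scaRNA, which left 3 detected genes. Leaving out a replicate gave shares from 0.162% to 0.191%, 6 to 8 detected genes (8.45% to 11.3%) and 30 to 35 genes with a count. At 5 CPM 12.7% of the range and 3.55% of Mir2000 upwards were detected, and at 20 CPM 1.07% of the latter, and the order of the 3 number ranges was the same at each threshold. Requiring a count in both replicates left 25 genes, and 35 had a count once replicate 1 was thinned to the smaller library. All 5 calls between replicates were made under each scaling, in the column without strand, without the count filter and at 50 counts, where the share of all genes called ran from 29.5% to 69.9%; 2 were at least 1.5-fold apart. The ratio of Mir1843b, which was not called, turned to 0.0038 in the column without strand. No paired analysis was possible because there is 1 group. Reads placed at several loci limit what counts of 0 mean.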

Other observations

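The column of counts on the opposite strand enters no result above. Over the 71 genes it held 3 counts in replicate 1 and 3 in replicate 2, at Mir1893, Mir1932, Mir1945 and Mir1956, with at most 2 at a gene in a library.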
